A study of Mus musculus with 4 samples.

Results

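At E14.5, a stage given in embryonic days, germ cells enriched from mouse ovaries had 1034 ATAC-seq peaks within 1 kb of an end of a protein-coding gene that were in the Gata2WT peak list and had no counterpart in the Gata2cKO list. They are called WT-only gene-end peaks here. The members were chosen by the readout itself: rows of each deposited list with the same interval were collapsed to 1 peak, peaks on the autosomes and the X chromosome were kept, and a Gata2WT peak was taken when no Gata2cKO peak overlapped it by 1 bp and when it reached within 1 kb of either outermost base of such a gene. The 1034 members stood among 14060 WT-only peaks, 14419 Gata2WT peaks at gene ends and 49394 Gata2WT peaks in all. They made up 7.17% of the Gata2WT peaks at gene ends, against 37.2% for WT-only peaks among those away from gene ends. In the other direction, 631 of 14002 Gata2cKO gene-end peaks (4.51%) had no Gata2WT peak over them, and these are called cKO-only. Absence from a list means that the authors' threshold was not reached there, and says nothing of a closed site.

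Both groups were E14.5 female embryos of the C57BL/6J strain, with 2 samples labelled Gata2WT and 2 labelled Gata2cKO. The cross paired Gata2flox/+ Prdm1-Cre males with Gata2flox/flox females, so every embryo inherited a floxed Gata2 allele from its mother. Prdm1-Cre is a Cre recombinase driven from Prdm1, a gene active early in the germ cell lineage. The labels do not say which alleles the Gata2WT embryos carried, whether they carried Cre, or how many embryos went into a sample. Ovaries were dissociated with trypsin, cells were enriched on beads against SSEA1, a carbohydrate on the surface of early germ cells. Each library took about 10000 cells, while the cell type label reads only ovarian cells. Each genotype was represented by 1 combined peak list, so there was no replicate error, no difference between genotypes could be tested, and no p-value is given. Brackets after a percentage hold its 95% Wilson interval, which covers counting error only.

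ATAC-seq reads where the Tn5 transposase can insert adapters, and the start of an active gene is usually its most open site because promoters are kept free of nucleosomes. Many mouse promoters lie in CpG islands, stretches rich in CG dinucleotides that tend to stay accessible in all tissues, while CG-poor promoters are more often open in particular tissues. The last bases of genes carry no such standing open site, though enhancers and neighbouring promoters can lie there. GATA2 binds DNA at the letters GATA through its zinc fingers and is best known for its part in blood stem cells.

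The depth behind the lists was read from the peaks. A summit pileup is the number of fragments stacked at the highest point of a peak, solved here from the deposited fold enrichment and p, and the lowest local background of a list was 2.19 fragments in Gata2WT and 2.01 in Gata2cKO. The lowest summit pileup was 8 and the median 19 in both lists. Over all protein-coding genes, 14091 of 21631 had a Gata2WT gene-end peak. At germ cell markers, 9 of 10 genes had one, against 10 of 12 for supporting cells, 10 of 12 for interstitial and mesonephric cells, 9 of 12 for endothelium, 1 of 12 for macrophages and 3 of 11 for erythroid cells. An open gene end is not expression, so these counts do not measure the share of any cell type.

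Of 21631 protein-coding genes, 1070 (4.95%) had a WT-only gene-end peak. For 444 of them (2.05%) it was the only kind of gene-end peak, so that the gene had none in the Gata2cKO list. For 595 (2.75%) it stood beside another gene-end peak that both lists held. The other 31 genes had a cKO-only gene-end peak as well, or a shared peak that reached the gene end in the Gata2cKO list alone. Their counterparts in the other direction were 250 genes (1.16%) with cKO-only gene-end peaks and no other, and 429 with 1 beside a shared peak. The lists differed in length, and when the Gata2WT list was shortened to its strongest peaks so that both had 44139, WT-only gene-end peaks numbered 800 against 750 cKO-only, genes with no other gene-end peak 351 against 320, and genes with a shared one beside it 460 against 483. Shortening a list brings the totals together by construction. With both lists instead held to a −log10 p of at least 5, the counts were 828 against 509 peaks, 421 against 242 genes with no other gene-end peak and 429 against 294 with a shared one beside it. The source of the surplus of WT-only gene ends was not tested.

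The sequence at some of these starts shows what the sites look like. The 250 bases before the RefSeq start of 8 genes are printed 5′ to 3′ on the gene's strand from the RefSeq promoter table (GRCm38.p6), and capitals mark a full GATA motif, taken as AGATAA as well as AGATAG, and also TGATAA together with TGATAG, on either strand. All 8 genes had a WT-only gene-end peak and no other. In Vwc2l (chr1:70725465-70725714, plus strand), Cnksr1 (chr4:134238400-134238649, minus strand) and Tcl1 (chr12:105222738-105222987, minus strand) the WT-only peak covered the start base itself, and no other gene named here for strength or from a pathway or marker list and searched met that condition. Zfp119a (chr17:55878954-55879203, minus strand), Tmem98 (chr11:80810116-80810365, plus strand), Ccnb3 (chrX:7041620-7041869, minus strand), Sectm1b (chr11:121063570-121063819, minus strand) and Rhox5 (chrX:37754358-37754607, plus strand) were added after their values were seen, because the peak covered at least 100 bases of the 300-base start window without the start base.
Vwc2l: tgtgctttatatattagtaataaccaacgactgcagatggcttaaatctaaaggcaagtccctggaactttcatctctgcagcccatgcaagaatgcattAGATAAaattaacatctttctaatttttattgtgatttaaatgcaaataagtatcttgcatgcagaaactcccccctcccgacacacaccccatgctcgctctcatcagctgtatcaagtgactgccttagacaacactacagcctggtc
Cnksr1: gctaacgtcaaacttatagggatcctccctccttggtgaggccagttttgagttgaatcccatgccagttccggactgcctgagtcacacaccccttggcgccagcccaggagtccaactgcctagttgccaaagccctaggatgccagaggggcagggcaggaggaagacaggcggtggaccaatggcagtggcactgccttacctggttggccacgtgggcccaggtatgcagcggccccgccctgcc
Tcl1: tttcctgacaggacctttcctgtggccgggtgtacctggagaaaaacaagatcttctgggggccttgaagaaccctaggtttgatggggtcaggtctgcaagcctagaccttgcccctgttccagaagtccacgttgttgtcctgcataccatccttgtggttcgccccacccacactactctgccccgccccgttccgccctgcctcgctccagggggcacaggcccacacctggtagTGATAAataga
Zfp119a: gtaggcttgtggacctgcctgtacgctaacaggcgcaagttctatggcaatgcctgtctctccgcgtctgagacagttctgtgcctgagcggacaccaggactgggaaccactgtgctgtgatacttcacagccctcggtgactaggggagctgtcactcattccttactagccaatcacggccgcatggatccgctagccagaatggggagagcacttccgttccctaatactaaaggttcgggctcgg
Tmem98: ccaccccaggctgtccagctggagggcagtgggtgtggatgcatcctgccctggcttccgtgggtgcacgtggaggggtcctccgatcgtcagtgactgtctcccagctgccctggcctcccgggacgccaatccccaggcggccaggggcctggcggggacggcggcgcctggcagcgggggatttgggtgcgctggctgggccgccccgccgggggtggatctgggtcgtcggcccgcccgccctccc
Ccnb3: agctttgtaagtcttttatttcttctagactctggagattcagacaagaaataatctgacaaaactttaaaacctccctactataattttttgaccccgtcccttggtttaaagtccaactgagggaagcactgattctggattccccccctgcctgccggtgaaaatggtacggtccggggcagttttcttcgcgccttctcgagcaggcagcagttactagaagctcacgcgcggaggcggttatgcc
Sectm1b: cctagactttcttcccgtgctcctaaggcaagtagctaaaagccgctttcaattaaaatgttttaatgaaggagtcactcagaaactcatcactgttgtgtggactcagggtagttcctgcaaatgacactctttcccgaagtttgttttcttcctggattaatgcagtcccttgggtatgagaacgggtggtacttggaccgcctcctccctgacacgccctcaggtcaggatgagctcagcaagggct
Rhox5: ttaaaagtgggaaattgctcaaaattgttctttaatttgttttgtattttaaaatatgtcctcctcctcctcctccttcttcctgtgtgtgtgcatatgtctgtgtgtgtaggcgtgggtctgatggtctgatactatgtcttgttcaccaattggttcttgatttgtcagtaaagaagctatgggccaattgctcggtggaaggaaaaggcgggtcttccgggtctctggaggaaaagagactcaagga
Full GATA motifs stood in 2 of them, 1 in Vwc2l and 1 in Tcl1. The number of CG dinucleotides in the 250 bases ran from 3 in Vwc2l and 4 in Rhox5 through 6 in Sectm1b, 7 in Cnksr1 and in Tcl1, 11 in Ccnb3 and 12 in Zfp119a to 20 in Tmem98, so CG-poor and CG-rich starts were both among them.

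The members were weak peaks. Their median −log10 q was 2.99, where q is the peak caller's false discovery rate and a larger value means a stronger peak, and the range was 1.09 to 23.4. The median summit pileup was 13 fragments (8 to 56) on a local background of 2.85, the median fold enrichment of summit over background was 3.31, and the median width was 369.5 bp. Shared gene-end peaks of the same list had a median −log10 q of 39.2, a pileup of 67 fragments on a background of 6.85, a fold enrichment of 8.50 and a width of 956 bp. cKO-only gene-end peaks resembled the members, with a median −log10 q of 2.88, a pileup of 12 and a width of 346 bp. Only 191 members reached a −log10 q of 5 and 28 reached 10, while 262 (25.3%) had a pileup of 10 or less. A like count, 262, sat on the genome background of the list, the floor the caller uses where no local background is higher, against 351 of 13385 shared gene-end peaks (2.62%). Low strength is what the choice favours, so these values describe the members and test nothing.

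**Figure D1:**
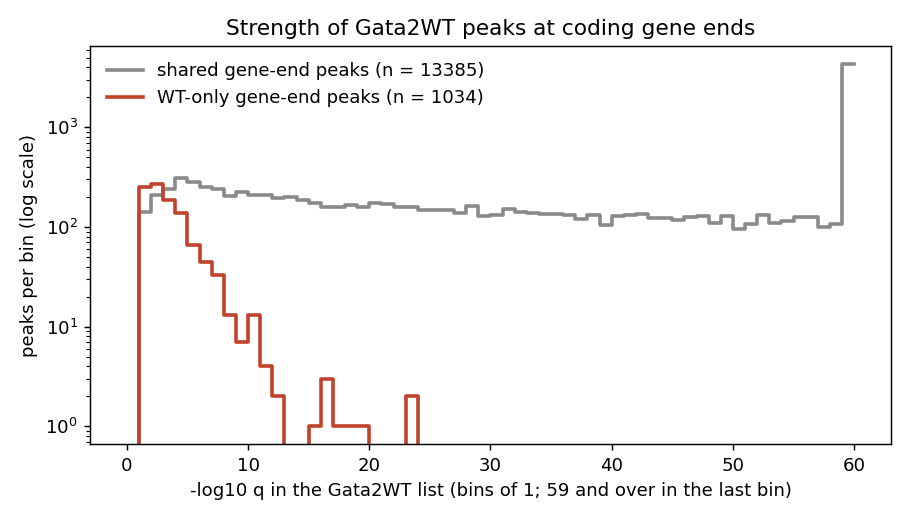
Number of Gata2WT gene-end peaks per unit of −log10 q (x axis, the last bin holds all peaks of 59 and over) on a logarithmic y axis, for 13385 shared and 1034 WT-only peaks. WT-only peaks are concentrated below 5 and end at 23.4. Shared peaks decline slowly, from 307 in the bin from 4 to 108 in the bin from 58, and the last bin holds 4332.

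The share of Gata2WT gene-end peaks that were WT-only dropped at each step of strength. Below a −log10 q of 2 it was 64.0% (251 of 392), from 2 to 3 it was 55.8%, from 3 to 5 37.2% and from 5 to 10 12.0%. From 10 to 20 it was 1.41% (26 of 1849), and at 20 and over 2 of 9463 peaks remained. At the same strength the share was higher away from gene ends: 74.3% below 2, 48.5% from 3 to 5, 21.9% from 5 to 10 and 4.66% from 10 to 20, with intervals that did not overlap those of gene ends in any of these bins. The gap between 7.17% at gene ends and 37.2% elsewhere was thus smaller within a bin of strength than over all peaks.

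At genes with no other gene-end peak, the members lay mostly at the start. The strand was known for 17274 of 21631 genes (79.9%) and for 817 of the 1070 genes with a member. Of the members assigned to 1 side, 376 were at a gene start and 375 at the last base of a gene, a start share of 50.1% (46.5 to 53.6), with 34 at both and 249 unassigned. Split by gene, the start share was 78.1% (242 of 310, 73.1 to 82.3) where the gene had no other gene-end peak, and 28.6% (116 of 406, 24.4 to 33.2) where a shared one stood beside it. The equal split over all members was therefore a mixture of opposite shares. The classes are defined by shared gene-end peaks, 91.1% of which lay at a start, so the definition itself favours this contrast. How much of the contrast comes from the definition was not tested.

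cKO-only peaks showed the same division, with a start share of 71.3% (63.6 to 78.0) at genes with no other gene-end peak and 30.0% (83 of 277, 24.9 to 35.6) beside a shared one. Shared gene-end peaks had a start share of 91.1% (90.5 to 91.6), which for weak ones, from 2 to 3 in −log10 q, was 51.6% (43.9 to 59.1). Members in that bin had a start share of 39.2% (32.6 to 46.2), and those from 10 to 20 had 16 of 19 at a start (84.2%). The start share of members thus rose with strength above that bin, as it did for shared peaks.

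**Figure D2:**
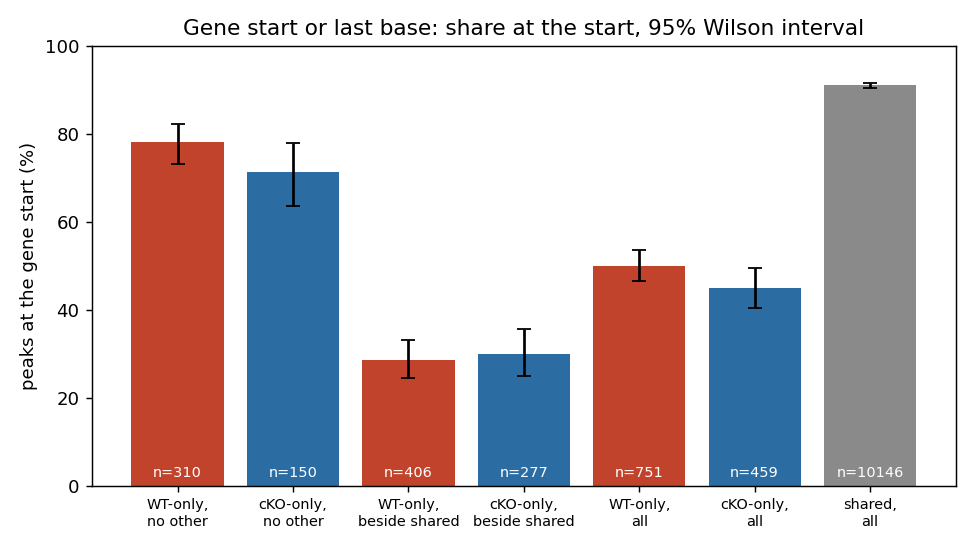
Percentage of gene-end peaks that lay at the gene start rather than at the last base, for peaks assigned to 1 side; bars are shares, whiskers the 95% Wilson intervals and n the number of peaks. WT-only and cKO-only bars pair closely: 78.1% and 71.3% with no other gene-end peak, 28.6% and 30.0% beside a shared peak, against 91.1% for shared peaks.

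Where a shared peak was present, the member was usually at the opposite end of the gene. Of the 595 such genes, 435 had members only at the end that no shared peak reached, and 160 had a member at the same end as a shared peak. With the strand known, 316 of 459 genes combined a member at the last base with a shared peak at the start, and 37 had the reverse. A typical gene of this class thus kept its open start in both lists and had a weak extra peak at its far end in Gata2WT.

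Within start regions the members were less centred than shared peaks. The summit lay inside the gene for 266 of 415 pairs of a member and a gene start, and the peak spanned the start base in 129 (31.1%), against 8846 of 10907 pairs (81.1%) for shared peaks. At the last base, 214 of 442 pairs had the summit inside the gene and 44 spanned the base. Members are narrower than shared peaks, and the part of width in these shares was not tested.

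**Figure D3:**
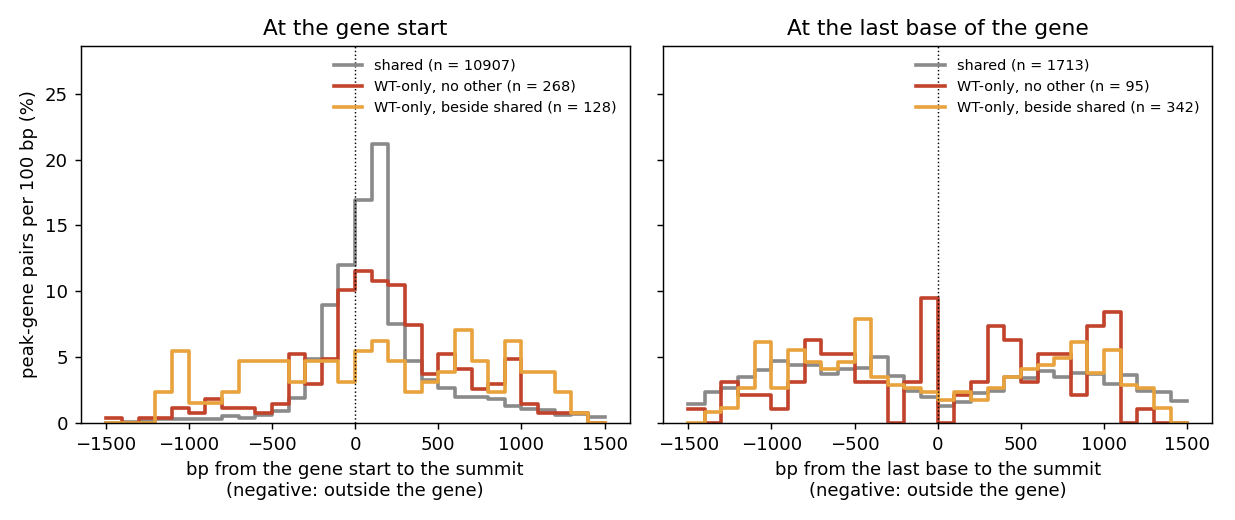
Distance in bp from the gene start (left) or the last base (right) to the peak summit, negative outside the gene, as a percentage of peak-gene pairs per 100 bp. Shared peaks and WT-only peaks of genes with no other gene-end peak gather around the start, while WT-only peaks beside a shared peak are spread over the window, as all classes are around the last base.

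The outermost base of a gene is not always its main start. Of the 444 genes with a WT-only gene-end peak and no other, 335 had at least 1 start window in the RefSeq promoter table, and at 147 of these (43.9%) a window overlapped a WT-only gene-end peak. At 52 (15.5%) a start window overlapped a shared peak that lay too far inside the gene, or over another start, to count as a gene-end peak. At 144 (43.0%) neither held. Among the 459 genes of the other class with a start window, 377 (82.1%) had a window in a shared peak and 41 (8.93%) in a WT-only one. For some of the 444 genes the word alone thus applies to the outer ends and not to every start.

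The surroundings differed between the classes in the direction that their definitions set. The median distance from a member to the nearest Gata2cKO peak was 6454 bp, 10046 bp at genes with no other gene-end peak and 4822 bp beside a shared one. Within 1000 bp of a Gata2cKO peak lay 206 members (19.9%), within 500 bp 126 and within 100 bp 10. Within 1000 bp of a shared Gata2WT peak lay 10 of 434 members of the first class and 150 of 541 of the second. Genes of the first class had a median span of 15.5 kb and those of the second 21.0 kb, against 23.0 kb for genes with only shared gene-end peaks, 8.45 kb for genes with none and 17.3 kb for all.

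Peaks inside the same genes, more than 1 kb from their ends, did not follow the gene ends. Such inner Gata2WT peaks were WT-only in 165 of 471 cases (35.0%) at genes with no other gene-end peak, in 304 of 839 (36.2%) beside a shared one, and in 5389 of 13422 (40.2%) at genes with only shared gene-end peaks. A WT-only gene end was thus not accompanied by a higher WT-only share in the gene body. By chromosome, the WT-only share of Gata2WT gene-end peaks ran from 24 of 498 on chromosome 12 to 66 of 622 on chromosome 15, and members were present on each of the 19 autosomes and on X.

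Start windows in WT-only peaks were poor in CG. A start window is the stretch from 250 bases before to 50 after a RefSeq start, and 196 windows overlapped a WT-only peak at that gene's start. Their median number of CG dinucleotides was 9, against 22 in 8851 windows in shared gene-end peaks, 13 in all 21045 windows and 3 in 8208 windows with no peak in either list. Windows in shared peaks with a −log10 q under 5 had a median of 11 (n = 223) and those in cKO-only peaks 8 (n = 109). Weak peaks of each kind were thus at CG-poorer starts than shared peaks as a whole, and the members lay close to the other weak classes.

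**Figure D4:**
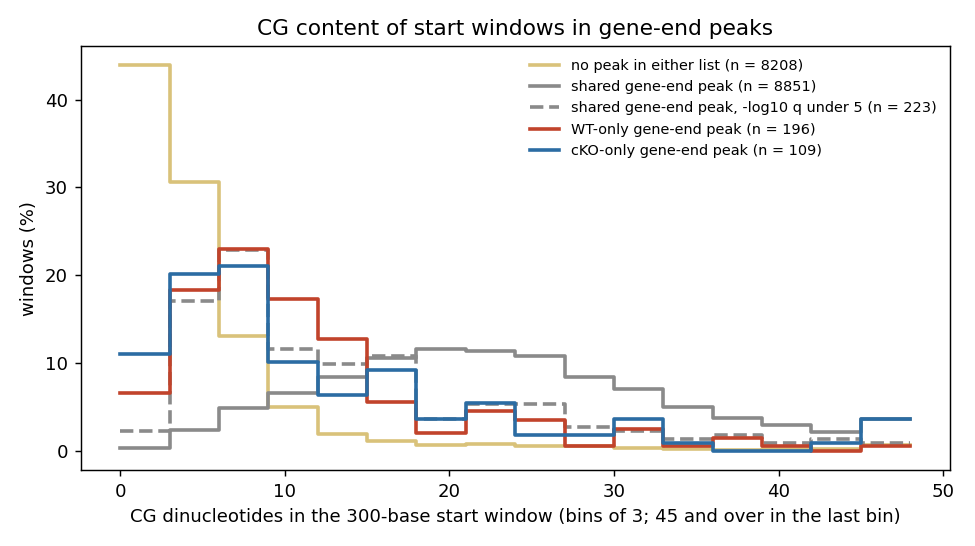
Percentage of 300-base start windows by their number of CG dinucleotides (bins of 3, the last holds 45 and over). Windows in WT-only peaks (median 9) follow those in cKO-only peaks (8) and weak shared peaks (11), between windows with no peak (3) and windows in all shared peaks (22).

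The share of windows with a full GATA motif had the share over all starts within its interval. At least 1 motif stood in 54 of 196 windows in WT-only peaks (27.6%, 21.8 to 34.2), and in 25.8% of all 21045 windows. The share was 21.1% (23 of 109) in cKO-only peaks, 22.0% in weak shared peaks, 15.8% in all shared peaks and 41.1% in windows with no peak, so it was lowest where CG content was highest and highest where CG content was lowest. The core GATA alone was in 52.6% of windows in WT-only peaks and 52.8% of all windows. A match is a run of letters and not a bound site.

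Of the other motifs, searched on both strands, the GC box and the ETS letters were among those with a higher share in windows of shared peaks than in the other sets of windows. The GC box GGGCGG was in 38.8% (32.2 to 45.8) of windows in WT-only peaks, 70.5% of those in shared peaks, 52.0% in weak shared peaks, 49.5% in cKO-only peaks and 46.7% of all. The ETS letters CCGGAA were in 12.8% (8.79 to 18.2), against 27.9% in shared, 9.42% in weak shared, 11.0% in cKO-only and 18.9% of all windows. The E box CACGTG was in 18 of 196 windows in WT-only peaks (9.18%) and in 2 of 109 in cKO-only peaks, with 7.91% of all windows, and the AP-1 letters TGANTCA were in 12 of 196 (6.12%, 3.54 to 10.4) and 17 of 109 (15.6%, 9.97 to 23.6), with 7.04% of all windows. The intervals of the WT-only and cKO-only shares overlapped for AP-1, and no difference between them was tested.

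Among genes with no other gene-end peak, the strongest members reached a −log10 q above 10. The leading one was at Zscan30, a zinc finger gene, on chromosome 18 from 23986959 to 23987343 with a −log10 q of 19.2 and 35 fragments at the summit. It lay 1.812 kb from a Gata2cKO peak of 17.2, and Zscan30 had a shared peak beside it with a window of 2 kb. Rbm12b1, which encodes an RNA-binding protein, had 18.3 with 27 fragments at chr4:12139840-12140373. Tcn2, the gene of the vitamin B12 carrier transcobalamin, had 17.7 with 32 fragments at chr11:3931965-3932307, over an end base of the gene. These were among the few members whose strength matched a region of the list where almost all gene-end peaks were shared.

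The next were Ccdc50 with a −log10 q of 16.8 and 42 fragments, Zfp119a with 16.1 and 25, and Vwc2l with 15.0 and 24. The Ccdc50 peak was 141 bp from a Gata2cKO peak of −log10 q 38.9, so it flanked a strong site that the Gata2cKO list held. The Zfp119a and Vwc2l peaks were isolated, 52.448 kb and 310.7 kb from the nearest Gata2cKO peak, and both stood on the genome background. Otos, known from the inner ear, had 12.6, Abhd14a 11.3, Tmem98 11.1, the class I histocompatibility gene H2-Q6 11.0 and Cnksr1, a scaffold of Ras signalling, 10.5. Sectm1b had a member at each end, with a −log10 q of 10.8 at the last base and 3.53 at the start. With a window of 2 kb, Ccdc50, Otos and Abhd14a had a shared gene-end peak beside the member. With a window of 500 bp, Rbm12b1, Ccdc50, Otos and H2-Q6 no longer had a member.

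Among genes with a shared gene-end peak beside the member, Scaf11, which encodes a splicing factor, had the strongest of all members, with a −log10 q of 23.4 and 56 fragments at chr15:96459873-96460392. It lay 184 bp from a Gata2cKO peak, and the shared peak at the same start had 33.3. Ino80d, a subunit of the INO80 chromatin remodeler, had 23.2 with 49 fragments at chr1:63114295-63114808. Both members were thus near a gene end with a peak in both lists.

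Nr2f1, which encodes the nuclear receptor COUP-TFI, had a member of 12.2 beside a shared start of 31.2, and Bzw1 had 2, of 10.9 at the start and 2.32 at the last base, beside a shared start of 119. At Adam15 (11.0 beside 38.8) and 0610010F05Rik (11.9 beside 70.7) the member was at the last base and the shared peak at the start, the pattern of most genes of this class. Tex37 was an exception, with a member of 16.1 at the start and a shared peak of 5.07 at the last base. Spag16, a gene of the sperm tail, shared its last-base member with the start of Vwc2l next to it.

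Single peaks counted for neighbouring genes at 75 members, which reached the ends of 2 genes each. Besides Vwc2l and Spag16 (15.0), strong ones were between Ccdc151 and Rgl3 with a −log10 q of 10.5, Grcc10 and Ptpn6 with 7.13, and Bag6 and Prrc2a with 6.93. Conversely, 38 genes had more than 1 member: Mrap, the accessory protein of the ACTH receptor, had members of 3.52, 2.40 and 2.18. Btbd2 had 8.80 at its start and 2.83 at its last base, with no shared gene-end peak. Nkx1-1, a homeobox gene, had 9.08 and 2.61, and Slc10a4 7.31 and 2.62, each pair at the last base.

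Pluripotency genes had the highest share of the 11 pathway lists. These lists, like the marker lists, were drawn up with earlier results of these data known. Of 32 pluripotency genes, 4 had a WT-only gene-end peak and no other (12.5%, 4.97 to 28.1, against 2.05% of all genes), 3 had 1 beside a shared peak (9.38%, against 2.75%), and Tfap2c had a member and a cKO-only gene-end peak. Dppa5a, an RNA-binding protein of pluripotent cells, had a −log10 q of 6.21 with 17 fragments. Pou5f1, which encodes OCT4, had 2.45 with 21 fragments, Tcl1, a coactivator of AKT, 2.51 with 14, and Dppa4 1.37 with 9. Only Dppa5a was above a −log10 q of 3 among these 4, and Tcl1, Pou5f1 and Dppa4 were no longer members at a −log10 p of at least 5. Pou5f1 lay 995 bp from the gene start, near the limit of 1 kb. It was lost with a window of 500 bp or with the summit required in the window, and had a shared peak beside it with a window of 2 kb. Dppa4 was also not among the members at equal list lengths.

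Of the pluripotency genes with a shared peak beside the member, Zfp42, the gene of REX1, had the strongest, with a −log10 q of 10.1 and 23 fragments. This member was near the gene start, 620 bp from a Gata2cKO peak of 12.9 that covered the start base. A shared Gata2WT peak lay 593 bp from the member, so the start was open in both lists. The strongest shared gene-end peak of Zfp42 was at the last base with 10.0. Nodal, a TGF-beta ligand, had 2.90 at the start beside a shared start of 12.2. Utf1, a short gene, had 2.32 beyond the last base, and its shared peak of 31.6 came within 1 kb of that base. The nearest Gata2cKO peak, 888 bp from the Utf1 member, covered the gene start. In the Gata2cKO list, 1 pluripotency gene had a cKO-only gene-end peak and no other, and none had 1 beside a shared peak.

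Oocyte genes were next, with 3 of 29 alone (10.3%, 3.58 to 26.4, against 2.05% of all genes) and none beside a shared peak (against 2.75%). Ooep, a component of the maternal complex under the oocyte membrane, had a −log10 q of 8.58 with 20 fragments at its start (chr9:78378201-78378542), Sohlh1, a transcription factor of early oocytes, 5.59 with 17, and Bcl2l10, an apoptosis regulator, 1.89 with 9, which was lost at equal list lengths. Ooep and Dppa5a are neighbours on chromosome 9, and their members, at 78378201 and 78367977, lay between shared peaks that began at 78358018 and 78385811 in the Gata2WT list. The Gata2cKO list held only those flanking peaks over the stretch from 10 kb before to 10 kb after the pair.

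Meiosis genes had 0 of 52 alone, an upper limit of 6.88%, and 1 beside a shared peak, at the last base of Iho1, which is needed for meiotic DNA breaks (−log10 q 4.71 beside a shared start of 32.9). Over all genes the shares were 2.05% and 2.75%, and the share of meiosis genes with any member, 1.92% (0.340 to 10.1), has the 4.95% of all genes within its interval. Shared gene-end peaks and no single-list one were found at 48 of the 52 genes, and 1 had a cKO-only gene-end peak and no other. BMP pathway genes had 0 of 28 and epigenetic regulators 0 of 32 of either kind, with shared gene-end peaks alone at 26 and 29 genes. By the same measure 8 of 32 pluripotency genes (25.0%, 13.3 to 42.1) had any member, an interval above the 4.95% of all genes. So were those of cell cycle genes (16.2%, 7.65 to 31.1), germ cell identity genes (13.8%, 5.50 to 30.6) and germ cell markers (20.0%, 5.67 to 51.0). Hox genes and testis-expressed Tex genes (12.8%, 5.60 to 26.7, each) were above it as well. Intervals of olfactory receptor, vomeronasal receptor and predicted genes lay below it. The lists are not separate: Kit and Tfap2c, the only germ cell markers with a member, were also counted among germ cell identity genes. Tfap2c was counted among pluripotency genes as well. These counts carry no replicate error.

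Germ cell identity genes had 1 of 29 alone (3.45%, 0.611 to 17.2, against 2.05% of all genes). It was Rhox5, a homeobox gene of the X chromosome, with a −log10 q of 1.97 and 9 fragments. Kit, the receptor of stem cell factor, had 2.33 and Ifitm3, an interferon-induced membrane protein known from primordial germ cells, 2.22, each at the last base beside a shared peak. Of 22 male germ fate genes, Morc1 and Tdrd7, both linked to transposon silencing in male germ cells, had 1.97 with 9 fragments each and no other gene-end peak, and Etv5 had 3.36 beside a shared start of 68.1. The share of male germ fate genes with a member and no other gene-end peak was 9.09% (2.53 to 27.8, against 2.05% of all genes), and 2 genes of the list had a cKO-only gene-end peak and no other, so the count was even in both directions. Apart from Etv5 the named members of these lists were below the median strength of the members.

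Among 26 retinoic acid genes, Hoxb1, a target of the pathway, had 3.20 with 11 fragments and no other gene-end peak (3.85% of the list, against 2.05% of all genes). The receptors Rarg and Rxrb had 2.55 and 3.93 beside shared peaks of 3.03 and 39.1 (7.69% of the list, against 2.75% of all genes). In the Gata2cKO list, 4 retinoic acid genes had a cKO-only gene-end peak beside a shared 1, so members of this list stood on both sides.

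Gata2 was the only gene of 21 GATA factors and partners with a member (4.76%, 0.846 to 22.7), a share near the 4.95% of all genes. Its peak at chr6:88193999-88194533 had a −log10 q of 4.27, a fold enrichment of 2.22 and 45 fragments on a local background of 19.8, the highest pileup among the members named from the lists. The nearest Gata2cKO peak, chr6:88197224-88198928, began 2.69 kb away with a −log10 q of 15.5 and covered the other RefSeq start of the gene. Gata2 is thus a case in which an outer start was WT-only and an inner start was in both lists.

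Cell cycle genes had members mainly beside shared peaks, 5 of 37 (13.5%, 5.91 to 28.0), against 2.75% of all genes. The proliferation antigen Mki67 had 5.62, the mitotic kinase Plk1 5.38 and the phosphatase Cdc25a 1.79 at the last base, each beside a shared start of 30.3, 52.1 and 128. Wee1, a kinase that holds back mitosis, had 2.74 and the cyclin Ccnd2 1.94, with no strand assigned. Ccnb3, a cyclin of meiosis, was alone in having no other gene-end peak, with 4.05 and 12 fragments. Housekeeping genes gave Ywhaz with 1.39 and no other, and Vcp with 5.09 at the last base, 2 of 30 in all (6.67%, against 4.95% of all genes).

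Markers of other cell types also had members. Amhr2, the receptor of anti-Mullerian hormone and a supporting cell marker, had 3.07 with 14 fragments and Nr2f2, a marker of interstitial cells, 2.71 with 12, both with no other gene-end peak. Fst, the activin antagonist follistatin, had 6.97 beside a shared peak, and Sox17 of the endothelium 1.19. No macrophage or erythroid marker had a member. Germ cell markers had 2 of 10, Kit and Tfap2c (20.0%, 5.67 to 51.0), and supporting cell markers 2 of 12 (16.7%, 4.70 to 44.8). Interstitial and mesonephric markers and endothelial markers had 1 of 12 each (8.33%, 1.49 to 35.4). The 4.95% of all genes lay within each of these intervals except that of germ cell markers. With both lists at a −log10 p of at least 5, Amhr2 and Fst stayed, while Kit, Tfap2c, Nr2f2 and Sox17 were no longer members. Members were thus found at a few genes of several cell types, and the part of other cells in the libraries was not tested.

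Gene families taken by symbol lay on both sides of the shares over all genes, which were 2.05% with a member and no other gene-end peak and 4.95% with any member. Of 1110 olfactory receptor genes, 7 had a WT-only gene-end peak and no other (0.631%, 0.306 to 1.30), with a −log10 q of 1.37 to 6.45, and these were 7 of the 9 that had any Gata2WT gene-end peak. Of 109 keratin genes 4 were alone (3.67%, 1.44 to 9.06). Of 397 Zfp zinc finger genes 6 were alone and 12 beside a shared peak (4.53% in all), and of 389 solute carrier genes 7 and 13 (5.14% in all), both near the share of all genes. Hox genes had 3 of 39 alone (7.69%, 2.65 to 20.3), Hoxb1, Hoxc8 and Hoxc9, with −log10 q up to 8.45, and Hoxc11 and Hoxd13 beside a shared peak. Of 57 protocadherin genes 5 had a member beside a shared peak and 21 had a cKO-only one beside a shared peak, but clustered protocadherin genes overlap and share an end, so these genes are not separate counts. Ribosomal protein genes had 2 of 83 alone, Rpl10l and Rpl39l, both variant copies of ribosomal genes.

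**Figure D5:**
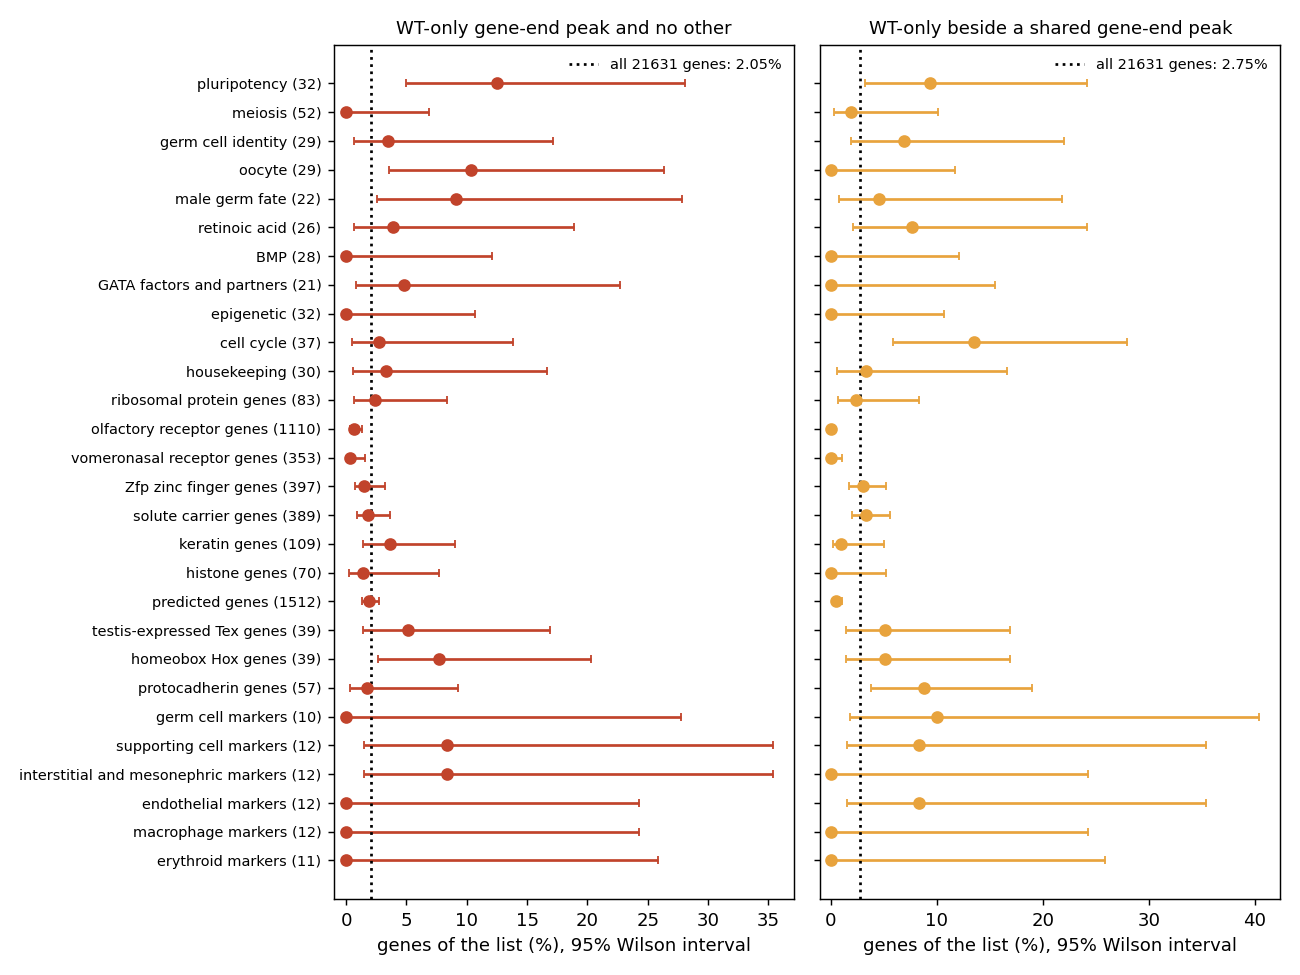
Percentage of each list's genes (size in brackets) with a WT-only gene-end peak and no other (left) or beside a shared one (right), with 95% Wilson intervals; dotted lines mark all 21631 protein-coding genes, 2.05% and 2.75%. On the left, intervals of pluripotency, oocyte, male germ fate and Hox genes lie above the line, and those of olfactory and vomeronasal receptor genes below it. Several lists, among them meiosis, BMP and epigenetic genes, are at 0 on the left with intervals that include the line. On the right, intervals of pluripotency, cell cycle and protocadherin genes lie above the line, and those of olfactory receptor, vomeronasal receptor and predicted genes below it.

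The limits of the rule ran through a continuous range of values. Just inside the overlap rule, Cpne5 (−log10 q 3.55), Bcar1 (2.03) and Nt5c1a (1.27) had a Gata2cKO peak 1, 3 and 11 bp away. Just outside it, Klf4 (3.97), St6galnac6 (3.75) and Cntnap2 (4.05) overlapped 1 by 2, 4 and 26 bp. For the 1 kb window, Siah3 (4.86), Pou5f1 (2.45) and Rrp7a (2.37) were just inside at 992, 995 and 999 bp, and WT-only peaks at 2410141K09Rik (2.62), Aff4 (4.59) and Actg1 (1.40) were just outside at 1001, 1002 and 1002 bp. Pou5f1 and Klf4, both of them pluripotency genes, thus lay within a few bases of different limits, Pou5f1 just inside the window and Klf4 just outside the overlap rule.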

How the data were processed

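Chromatin accessibility was measured by ATAC-seq in 4 samples, 2 labelled Gata2WT and 2 labelled Gata2cKO. Per the submitters' processing notes, the authors worked on GRCm38 (mm10) with MACS2 2.2.6, bedtools 2.29.2, Bowtie2 2.3.5.1, Trimmomatic 0.39, Picard 2.23.0 and SAMtools. Not given in the sources used here are parameters, duplicate and Tn5 handling and how samples were combined. The authors deposited 1 narrow peak list per genotype, with a score, a fold enrichment (a ratio of summit pileup to local background) and the −log10 p-value and −log10 q-value of each peak. These values are not scaled between lists and were used within a list only.

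Rows with the same interval were collapsed (58367 to 49394 in Gata2WT, 52241 to 44139 in Gata2cKO). Pileup and background were solved from fold enrichment and −log10 p, and came out whole, within 0.001 in −log10 p, for 99.996% and 99.9955% of peaks. Gene ends came from the RefSeq table of GRCm38.p6, and strands and start windows from the RefSeq promoter table, which lacks some genes. Overlap, distance and pileup steps were tested on simulated data. Python 3.11.15, pandas 2.3.3, numpy 2.4.6, scipy 1.17.1 and matplotlib 3.10.9 were used. No test was made, since each genotype was 1 combined list.

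Members and gene lists were chosen with earlier results of these data known. Genes named are the 12 strongest with no other gene-end peak and the 8 strongest beside a shared one, every gene of the 17 pathway and marker lists with a member, the 6 genes with most members, the 5 strongest shared between neighbours (1 of them is not reported here), and the 3 nearest to each limit. Genes of 11 families taken by symbol were added after their values were seen. Alternatives covered the overlap rule, peak threshold, list length, gene-end window and the sequences included.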

Additional observations from a re-analysis of the deposited data

How the results depend on the processing

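Counting peaks as shared when summits lay within 250 bp moved the start share to 56.1%, the median −log10 q to 3.37, the pileup to 14 and the distance to the nearest Gata2cKO peak to 2976 bp; requiring an overlap of 0.5 of the shorter interval gave 5822 bp. With both lists at a −log10 p of at least 5, the start share was 55.3%, the median −log10 q 4.66, the pileup 16 and the share of windows with a full GATA motif 21.5%. Members with a −log10 q of at least 3 numbered 515, at 248 genes with no other gene-end peak and 284 beside a shared one, with a start share of 55.1%, a median −log10 q of 4.50, a pileup of 15, a distance of 5868 bp and 7 genes of the pathway and marker lists with no other gene-end peak, against 16. At equal list lengths the median −log10 q was 3.49, the pileup 14 and those list genes 10; Bcl2l10, Dppa4, Morc1, Rhox5, Tdrd7 and Ywhaz dropped out. A window of 500 bp gave 670 members, 275 genes beside a shared peak, a start share of 59.5% and a distance of 7539.5 bp. A window of 2 kb gave 1639, 1189 and a start share of 41.7%. Counts also changed where summits within 250 bp counted as shared, with 1406 members and 714 genes beside a shared peak. Requiring the summit in the window gave 891 members and 435 such genes, and the overlap of 0.5 gave 1120 members. Counting a Gata2cKO peak within 100 bp as shared gave 1024 members, and including all sequences left 1034. Of 54 named genes, 45 stayed WT-only at equal list lengths, 37 at a −log10 p of at least 5 and 31 with the 500 bp window. No paired analysis was possible because each genotype was deposited as 1 combined list without its replicates. Sites of few fragments are limited by depth: the lowest pileup called was 8.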
